A study of Mus musculus with 24 samples.

Results

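The genes described here code for the proteins of the cytosolic ribosome, in splenic Tconv CD4+ cells (conventional, non-regulatory helper T cells) of conplastic mice. They were chosen by symbol: protein-coding genes named Rpl or Rps with a number, and the stalk and laminin-receptor genes Rplp0, Rplp1, Rplp2 and Rpsa. Of 55414 genes in the count table, 84 met the rule, of which 46 belong to the large subunit (3 of them to the stalk), 30 to the small subunit, and 8 are paralogs, relatives of another gene that met the rule, here called the parent. Both strains carry the C57BL/6J nuclear genome and differ in the mtDNA, which is of B6 origin (labelled WT) in one and of NZB origin in the other. Cells were either left resting (RES) or activated (ACT) for 72 h with beads that carry antibodies to CD3ε and CD28, IL-2 being named in the same step of the study's methods, which gave 4 groups of 6 libraries: mtDNA-B6 resting, mtDNA-B6 activated, mtDNA-NZB resting and mtDNA-NZB activated. RNA was read by bulk MARS-seq, in which the 3′ ends of poly(A) RNA are sequenced and each captured molecule carries a unique molecular identifier (UMI). The study's methods describe most experiments as done on young adult male mice, without naming these libraries, and do not say whether each library came from its own mouse, so the p-values measure the spread between these libraries, which may be in part technical.

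A ribosome joins a large subunit, where peptide bonds are made, to a small subunit, where the mRNA is decoded, and each holds 1 copy of most of its proteins. The mRNAs of ribosomal proteins are among the most abundant in dividing cells. They begin with a C followed by a run of pyrimidines, the 5′ terminal oligopyrimidine (TOP) tract, through which mTOR signalling controls how strongly they are translated. Resting T cells hold few ribosomes, and the entry into growth after antigen receptor stimulation is accompanied by ribosome production. Counts of RNA, as here, show neither translation nor the number of ribosomes.

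The start of 8 members is shown: Rps27l and its parent Rps27, the other paralogs called below, the canonical member called higher, and 3 members that fell in both haplotypes. Each line gives the 15 bases before and the 15 bases from the annotated start, 5′ to 3′, from RefSeq on GRCm38.p6, and capitals mark the longest unbroken run of C and T where it was at least 6 bases long. Rps27l has 2 annotated starts, of which that with the longest run is shown.
Rps27, chr3:90213634-90213663, minus strand: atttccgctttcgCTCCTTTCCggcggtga
Rps27l, chr9:66946071-66946100, plus strand: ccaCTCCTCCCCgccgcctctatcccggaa
Rpl22l1, chr3:28805493-28805522, plus strand: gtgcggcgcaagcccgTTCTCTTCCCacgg
Rps10, chr17:27635230-27635259, minus strand: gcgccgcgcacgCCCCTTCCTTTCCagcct
Rpl13a, chr7:45128731-45128760, minus strand: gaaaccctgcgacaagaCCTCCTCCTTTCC
Rpl7l1, chr17:46782642-46782671, minus strand: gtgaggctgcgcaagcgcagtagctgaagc
Rpl12, chr2:32961697-32961726, plus strand: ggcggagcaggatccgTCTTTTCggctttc
Rps16, chr7:28350674-28350703, plus strand: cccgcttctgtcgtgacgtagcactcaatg
In Rps27 and Rps10 the run covered the annotated start itself. In Rps27l it lay before the start, and in Rpl22l1, Rpl13a and Rpl12 just after it. In Rpl7l1, which rose on activation, and in Rps16, which fell, no run of this length was found.

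RefSeq gave a start for 63 of the 84 members. A pyrimidine run of at least 6 bases on the gene's strand, within these 30 bases, was found in 38 of them (60.3%), against 32.7% of 27025 genes with an entry. The letters CCGGAA, the core bound by ETS-family factors, occurred on either strand of the 300 bases around the start in 34 members (54.0%) and in 16.7% of all genes. The letters CTTTCC occurred in 34 members (54.0%) and in 29.3% of all genes; read on opposite strands, the 2 motifs can share bases. TATAAA was found in 7 members (11.1%) and in 15.7% of all genes. These matches describe the letters of the windows and not the use of a site.

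Libraries held 51409 to 6449395 UMI counts, with resting mtDNA-NZB replicate 2 (51409) and activated mtDNA-NZB replicate 1 (641467) far below the other 22. By the number of reads per UMI the libraries fell into 3 sets of 8, and the sets were not spread evenly: set 1 held 5 activated and no resting mtDNA-B6 library. The 8 listed CD4 T cell genes were present in every group, with a summed level of 3068 to 5420 CPM (the usual count scaled by library size, with sizes corrected for composition by TMM). RNA of other cells was also present and was higher at rest. Beside every comparison of activated with resting cells below stand these ranges: the sum of 8 B cell genes was 5736 to 17446 CPM at rest and 1108 to 6167 CPM after activation, with 1 of 8 called lower, Ighm, whose medians were 10431 and 10701 CPM at rest and 3164 and 2246 CPM after activation; 6 myeloid genes 460 to 2870 and 10.8 to 111 CPM, with 6 of 6 lower; 9 granulocyte genes 428 to 20659 and 8.67 to 183 CPM, with 9 of 9 lower; and 8 erythroid genes 105 to 7274 and 19.0 to 181 CPM, with 7 of 8 lower. The sums of 5 T cell activation genes were 106.2 to 351 CPM at rest and 432 to 785 CPM after activation, those of 2 CD8 T cell genes 16.9 to 142 and 82.0 to 534 CPM, those of 4 platelet genes 8.27 to 53.4 and 18.0 to 504 CPM, and those of 3 NK genes at most 33.9 and 3.39 CPM. Of the 5 activation genes, 4 were called higher in each haplotype and 1 was called lower with mtDNA-NZB. The median of Cd44, 1 of these 5, went from 35.4 to 31.3 CPM with mtDNA-B6 and from 46.5 to 25.4 CPM with mtDNA-NZB. Of 2 regulatory T cell genes, 1 was called lower with mtDNA-B6 and 1 higher with mtDNA-NZB. Of all the listed genes, Klra8 of the NK list was at 0 in all 24 libraries, and the platelet gene Ppbp was at 0 in all 6 resting mtDNA-B6 libraries. The part of these cells in the results was not tested.

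The first question was how much of the cells' RNA the 84 genes made up. They took a smaller share of all UMI counts after activation in both haplotypes. In resting mtDNA-B6 cells the share had a lowest value of 21.8%, a median of 24.8% and a highest value of 26.5%, and in activated mtDNA-B6 cells 19.0%, 20.2% and 22.3%. In resting mtDNA-NZB cells it was 22.5%, 24.8% and 28.6%, and in activated mtDNA-NZB cells 18.0%, 20.4% and 24.6%. The groups met at their edges, in that the lowest resting mtDNA-B6 library lay under the highest activated one, and activated mtDNA-NZB replicate 3 lay among the resting libraries.

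The mean share was 24.6% ± 1.81 (SD, n = 6) at rest and 20.5% ± 1.25 (SD, n = 6) after activation with mtDNA-B6, so that the share fell by 4.01 percentage points (exact permutation test, two-sided, p = 0.00433, adjusted over 5 comparisons 0.0216). With mtDNA-NZB it was 24.97% ± 2.21 (SD, n = 6) and 20.7% ± 2.15 (SD, n = 6), and the share fell by 4.25 percentage points (exact permutation test, p = 0.00866, adjusted p = 0.0216). Counting error is small beside this spread: even in the smallest library the 95% Wilson interval of the share ran from 22.2% to 22.9%. A bulk share cannot tell fewer cells of a type from less RNA per cell, and a lower share can also come from more of other RNA.

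Between haplotypes the share did not differ beyond the spread. At rest mtDNA-NZB was 0.415 percentage points above mtDNA-B6 (exact permutation test, p = 0.736, adjusted p = 0.877), and after activation 0.171 points above it (exact permutation test, p = 0.877). The 2 responses to activation differed by -0.244 percentage points (exact permutation test, adjusted p = 0.877).

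**Figure D1:**
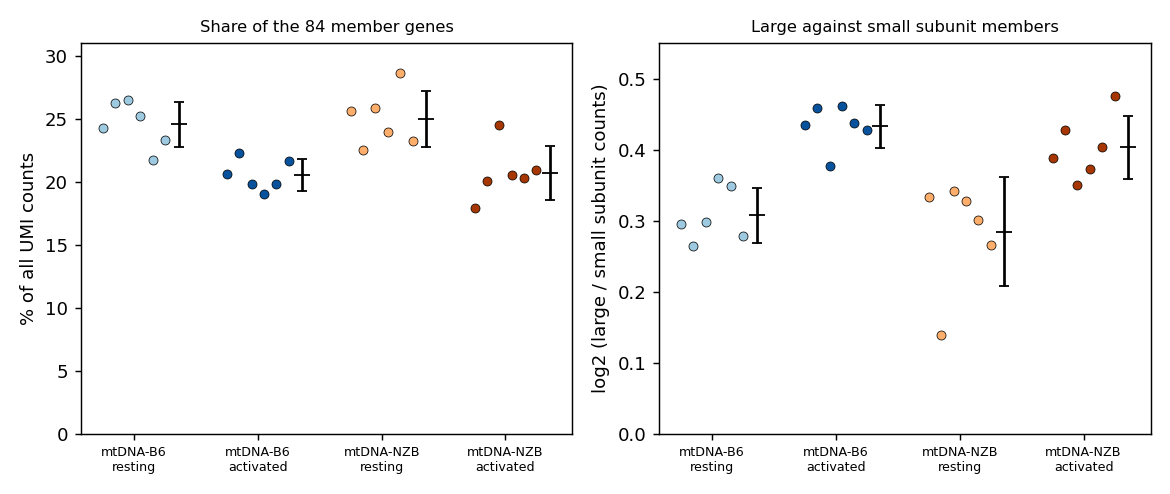
Left, share of the 84 ribosomal protein genes in all UMI counts (%), and right, log2 ratio of summed large to small subunit counts, each point being 1 library of the 4 groups with the mean and SD beside it. On activation the share fell by 4.01 and 4.25 percentage points, and the ratio of resting and activated libraries does not overlap within either haplotype.

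Within the library sets the fall of the share was also present. With mtDNA-NZB it changed by -5.24, -5.34 and -3.33 percentage points in sets 1, 2 and 3. Sets 1 and 2 each held 1 resting mtDNA-NZB library against 2 activated ones. In set 3 the 2 activated libraries, at 18.0% and 24.6%, overlapped the 4 resting ones, at 22.5 to 28.6%. With mtDNA-B6 only set 2 held both states, with 1 activated library against 4 resting ones, and there the share changed by -5.76 points. Over 21 libraries, that is leaving out replicate 2 of resting mtDNA-NZB and replicate 6 of both mtDNA-NZB states, the mtDNA-NZB share changed by -5.33 points, and without the 2 libraries of the lowest total by -4.19 points, each with an adjusted p of 0.0595 in the exact permutation test.

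The small subunit lost more of its share than the large one. The 30 small subunit members took 9.54 to 11.9% of counts in resting and 7.97 to 9.37% in activated mtDNA-B6 cells, which did not overlap. In mtDNA-NZB cells they took 10.5 to 12.8% at rest and 7.75 to 10.8% after activation. The 46 large subunit members took 12.2 to 14.6% at rest and 11.0 to 12.9% after activation with mtDNA-B6, a change of -1.79 percentage points with an adjusted p of 0.0541 (exact permutation test). With mtDNA-NZB the change of the same members was -1.95 points, with an adjusted p of 0.0703 (exact permutation test). The small subunit share fell by 2.24 points with mtDNA-B6, and it changed by -2.33 points with mtDNA-NZB, both past the threshold (exact permutation tests, adjusted p = 0.0108 with mtDNA-B6 and 0.0216 with mtDNA-NZB).

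The log2 ratio of summed large to small subunit counts, a value within each library that needs no scaling, was higher in activated cells. It was 0.26 at its lowest, 0.30 at its median and 0.36 at its highest in resting mtDNA-B6 libraries, and 0.38, 0.44 and 0.46 in activated ones. In mtDNA-NZB libraries it was 0.14, 0.31 and 0.34 at rest and 0.35, 0.40 and 0.48 after activation. No activated library lay below a resting library of its haplotype. The mean rose by 0.13 with mtDNA-B6 and by 0.12 with mtDNA-NZB (exact permutation tests, p = 0.00216 in both, the smallest that 6 against 6 libraries allow, adjusted p = 0.00541). The difference between the haplotypes' responses was -0.01 (exact permutation test, adjusted p = 0.885). Without Rps24 and Rps27, which varied widely between libraries (below), the rises were 0.11 and 0.10 (exact permutation tests, adjusted p = 0.00541 in both).

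Gene by gene, 81 of the 84 members had enough counts to be tested with edgeR. The remaining 3 are paralogs. Rpl10l, a testis gene, had no count in any library. Rpl3l, known from heart and skeletal muscle, had 13 counts in all, none of them in activated cells. Rpl39l had at most 20 counts in a library.

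With mtDNA-B6, 35 of the 81 tested members fell on activation, 2 rose and 44 were not called at an adjusted p of at most 0.05. Over all 10566 tested genes 46.9% were called, 24.5% being lower and 22.4% higher. The members' share of calls, 45.7%, was near that background, and the share that fell was 43.2%. The median log2 fold change of the members was -0.37, against -0.03 over all genes, and 74 of 81 members had a negative value, against 51.7% of all genes. The groups did not overlap in 29 members, 27 of them lower in activated cells; over all genes 31.8% did not overlap and 16.4% were lower without overlap.

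With mtDNA-NZB, 32 of 81 members fell, 3 rose and 46 were not called. The background was 53.5% of all genes called, 28.4% lower and 25.2% higher, beside which 43.2% of the members were called and 39.5% fell. Their median log2 fold change was -0.32, against -0.06 over all genes, and 74 of 81 were negative, against 52.9% of all genes. The groups did not overlap in 5 members, 4 of them lower, where the background was 18.9% and 6.95%. Of the 81 members, 29 fell in both haplotypes, 2 rose in both, 6 were called lower with mtDNA-B6 and not with mtDNA-NZB, 3 lower and 1 higher with mtDNA-NZB and not with mtDNA-B6, and 40 in neither. The share of all genes called in both haplotypes was not counted, so these numbers have no background beside them. The 2 comparisons share no library, but they come from 1 fit with a shared estimate of the spread.

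The size of these changes was small. Only 2 of the members called with mtDNA-B6 and 3 of those called with mtDNA-NZB changed by at least 1 on the log2 scale, while 17.7% and 23.4% of all tested genes did so. The counts also depend on the libraries and on the model. With the library set as a term, 21 members were called with mtDNA-B6 and 37 with mtDNA-NZB, where 33.4% and 51% of all genes were called. With only the 12 libraries of a haplotype fitted, 59 and 19 were called, beside 56.9% and 43.7% of all genes. Leaving out resting mtDNA-B6 replicate 3 left 24 calls with mtDNA-B6, where 43.9% of all genes were called. Leaving out resting mtDNA-NZB replicate 5 left 20 falls with mtDNA-NZB, a count that has no background of all genes beside it here. Without the 2 libraries of the lowest total, 52 and 45 members were called, and with mtDNA-B6 48.8% of all genes were. The 45 with mtDNA-NZB likewise have no background beside them here. With library totals in place of TMM the median of all genes moved from -0.03 to 0.10 with mtDNA-B6 and from -0.06 to 0.06 with mtDNA-NZB; the members' median then differed from it by -0.34 and -0.30, and 71 and 66 members were negative. With DESeq2 over all 25030 genes with a count, the median of all genes with mtDNA-NZB was -0.27, and the members' median differed from it by -0.05.

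**Figure D2:**
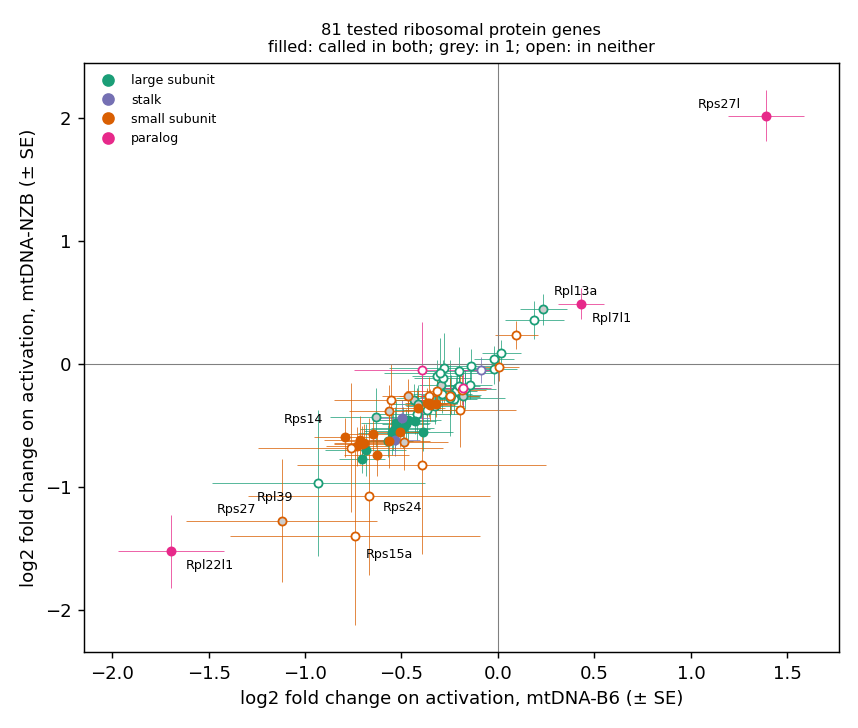
Log2 fold change on activation of the 81 tested members with mtDNA-B6 (horizontal) and mtDNA-NZB (vertical), with standard errors, coloured by role and filled by whether the gene was called in both, 1 or neither haplotype. Most points lie below 0 on both axes, at medians of -0.37 and -0.32, while Rps27l lies far above 0 and Rpl22l1 far below.

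By role, 16 of 30 small subunit members fell in each haplotype and none rose. Their median log2 fold change was -0.50 with mtDNA-B6 and -0.47 with mtDNA-NZB. Of the 43 large subunit members outside the stalk, 16 fell with mtDNA-B6, and 13 fell and 1 rose with mtDNA-NZB, with medians of -0.30 and -0.27. Of the 5 tested paralogs, 2 rose and 1 fell in each haplotype.

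Rps14, a protein of the small subunit's platform, had one of the largest falls among the members called with mtDNA-B6. In mtDNA-B6 cells its lowest, median and highest level was 4266, 4970 and 6192 CPM at rest and 2501, 2937 and 3351 CPM after activation, with no overlap (log2 fold change -0.79 ± 0.16 SE, adjusted p = 0.000207). In mtDNA-NZB cells it was 4661, 5010 and 6885 CPM at rest and 2577, 3267 and 6122 CPM after activation. Activated mtDNA-NZB replicate 3, at 6122 CPM, stood among the resting libraries, and the fall was -0.60 ± 0.16 (adjusted p = 0.0026). The same library was the highest of its group for Rps10 and Rpl12.

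Rps16 lies at the decoding side of the small subunit. It went from a median of 3163 CPM (2296 to 3970) to 1919 CPM (1721 to 2139) with mtDNA-B6, a log2 fold change of -0.73 ± 0.16 (adjusted p = 0.00051). Rps10, at the mRNA entry region and one of the genes with a long pyrimidine run at its start (above), went from 421 CPM (334 to 481) to 246 CPM (232 to 306) with mtDNA-B6. That is a log2 fold change of -0.71 ± 0.19 (adjusted p = 0.00345). With mtDNA-NZB Rps10 went from 445 CPM (305 to 687) to 254 CPM (226 to 568), and the last of these ranges overlapped the resting one. The end of Rps10 overlaps another annotated protein-coding gene, Gm49804.

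Rpl12, at the base of the large subunit's stalk, fell without overlap in both haplotypes. It was 4539 to 6600 CPM at rest and 3292 to 4051 CPM after activation with mtDNA-B6 (log2 fold change -0.71 ± 0.12, adjusted p = 3.25e-05). With mtDNA-NZB it was 5031 to 8717 and 3343 to 4509 CPM (log2 fold change -0.77 ± 0.12, adjusted p = 8.42e-06). This was the smallest adjusted p of any large subunit member in both haplotypes.

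Among members called with mtDNA-NZB the 5 largest falls were those of Rpl22l1, Rps27, Rpl12, Rps29 and Rpl30. Rps29, a zinc-binding protein of the small subunit, had a median of 10446 CPM (5437 to 12896) at rest and 6317 CPM (4108 to 7023) after activation, a log2 fold change of -0.74 ± 0.17 (adjusted p = 0.000715). Rpl30 of the large subunit had medians of 1931 CPM (508 to 2758) and 1186 CPM (694 to 1451), a log2 fold change of -0.70 ± 0.21 (adjusted p = 0.00747). In both genes the resting and activated ranges overlapped, and for Rpl30 the lowest resting value, 508 CPM, is 30 counts in the library of the lowest total. The Rpl30 call was lost in 1 of 15 alternatives (adjusted p up to 0.0504).

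The stalk, which recruits the translation factors with GTPase activity, did not move as 1 unit. Rplp2 had a median of 10537 CPM (7845 to 12036) in resting and 6857 CPM (6258 to 7979) in activated mtDNA-B6 cells, and 10308 CPM (8283 to 13547) and 6928 CPM (5652 to 8224) in mtDNA-NZB cells. It fell by 0.53 ± 0.13 and 0.62 ± 0.13 on the log2 scale (adjusted p = 0.00134 and 0.000253). Rplp1 had medians of 10281 and 7222 CPM with mtDNA-B6 and of 10882 and 7232 CPM with mtDNA-NZB. It fell by 0.50 ± 0.15 and 0.44 ± 0.15 (adjusted p = 0.00656 and 0.0133), calls lost in 2 and 1 of 15 alternatives (adjusted p up to 0.0726 and 0.054). Rplp0, the protein that anchors both, was not called: its medians were 4894 and 4678 CPM with mtDNA-B6 and 5151 and 4985 CPM with mtDNA-NZB, with log2 fold changes of -0.09 ± 0.11 and -0.05 ± 0.11.

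Rpl5 and Rpl11 form a particle with an rRNA of the large subunit that also binds MDM2, the inhibitor of p53. Rpl5 had medians of 1533 CPM at rest and 1042 CPM after activation with mtDNA-B6, and of 1528 and 1048 CPM with mtDNA-NZB (log2 fold changes -0.55 ± 0.17 and -0.56 ± 0.17, adjusted p = 0.0114 and 0.00861), and these calls were lost in 2 and 1 of 15 alternatives (adjusted p up to 0.142 and 0.0523). The end of Rpl5 overlaps another protein-coding gene, Dipk1a. Rpl11 had medians of 3620 and 2902 CPM with mtDNA-B6 and fell by 0.30 ± 0.11 (adjusted p = 0.0332), a call lost in 7 of 15 alternatives, whose adjusted p ranged from 0.0104 to 0.162. With mtDNA-NZB its medians were 3690 and 3142 CPM, with a log2 fold change of -0.17 ± 0.11 (adjusted p = 0.199).

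Rps19, the gene most often mutated in Diamond-Blackfan anaemia, went from a median of 5761 CPM to 3881 CPM with mtDNA-B6 and from 6252 CPM to 4223 CPM with mtDNA-NZB. It fell by 0.51 ± 0.12 and 0.55 ± 0.12 (adjusted p = 0.0014 and 0.000546), and with mtDNA-NZB the highest activated library, 5686 CPM, lay just under the lowest resting one, 5793 CPM.

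Several members with a well-known role were not called in either haplotype. Rps6, the target of S6 kinase downstream of mTOR, had medians of 650 and 526 CPM with mtDNA-B6 and 673 and 531 CPM with mtDNA-NZB, with log2 fold changes of -0.25 ± 0.15 and -0.26 ± 0.15 (adjusted p = 0.175 and 0.149). Rpsa, also called the laminin receptor, had log2 fold changes of -0.19 ± 0.12 and -0.21 ± 0.12. Rps27a, made as a fusion with ubiquitin, had -0.19 ± 0.29 and -0.37 ± 0.30, with libraries from 213 to 744 CPM. Rpl10, whose incorporation is a late step in making the large subunit, had -0.21 ± 0.12 and -0.20 ± 0.12. Rpl41, the smallest ribosomal protein, was on the other side of 0 with 0.19 ± 0.15 and 0.36 ± 0.15 (adjusted p = 0.329 and 0.0537).

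Rpl13a, known for a second role in silencing inflammatory mRNAs, was the one canonical member called higher, with mtDNA-NZB. Its level was 203, 393 and 445 CPM (lowest, median, highest) at rest and 413, 494 and 665 CPM after activation. The log2 fold change was 0.45 ± 0.12 (adjusted p = 0.00382) and stayed called under all 15 alternatives and every fit without 1 library. The ranges overlapped slightly. With mtDNA-B6 it went from 414 CPM (367 to 446) to 475 CPM (434 to 548), a log2 fold change of 0.23 ± 0.12 (adjusted p = 0.115). The end of Rpl13a overlaps an annotated gene, Gm45713.

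The largest changes were in the paralogs. Rps27l (chr9, GRCm39), whose expression p53 can induce, rose in both haplotypes. In mtDNA-B6 cells its lowest, median and highest level was 84.1, 132 and 187 CPM at rest and 313, 328 and 385 CPM after activation. In mtDNA-NZB cells it was 33.9, 77.3 and 157 CPM at rest and 282, 377 and 435 CPM after activation. Every activated library was above every resting one of both haplotypes. The log2 fold change was 1.39 ± 0.20 with mtDNA-B6 (adjusted p = 3.04e-06) and 2.02 ± 0.21 with mtDNA-NZB (adjusted p = 2.17e-08).

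Its parent Rps27 had negative log2 fold changes and a wider spread. Rps27 had 758 to 4688 CPM (median 2000) at rest and 560 to 1790 CPM (median 1007) after activation with mtDNA-B6, a log2 fold change of -1.12 ± 0.50 (adjusted p = 0.0658). With mtDNA-NZB it had 592 to 4369 CPM (median 2261) and 507 to 1808 CPM (median 646), a log2 fold change of -1.27 ± 0.50 (adjusted p = 0.0345). That call was lost in 9 of 15 alternatives, where the adjusted p ranged from 0.0221 to 0.671, and in 7 of the 24 fits that each left out 1 library. The log2 ratio of Rps27l to Rps27 within a library was higher after activation by 2.42 with mtDNA-B6 and by 3.31 with mtDNA-NZB (exact permutation tests, adjusted p over 10 tests 0.0216 and 0.00722).

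Rpl22l1 (chr3, GRCm39) was the member with the largest fall in both haplotypes. Its counts were low, 3 to 65 in a library. It was 11.5, 14.1 and 17.5 CPM (lowest, median, highest) in resting and 1.32, 4.59 and 6.62 CPM in activated mtDNA-B6 cells, without overlap (log2 fold change -1.69 ± 0.27, adjusted p = 1.77e-05). In mtDNA-NZB cells it was 9.62, 13.0 and 50.8 CPM at rest and 3.05, 4.45 and 10.1 CPM after activation (log2 fold change -1.52 ± 0.30, adjusted p = 0.000127). The value of 50.8 CPM rests on 3 counts in the library of the lowest total. The parent Rpl22, which is needed for the development of T cells with the usual receptor, was not called, with log2 fold changes of -0.20 ± 0.20 and -0.06 ± 0.20. The log2 ratio of Rpl22l1 to Rpl22 fell by 1.61 with mtDNA-B6 (exact permutation test, adjusted p = 0.00722). With mtDNA-NZB its change of -1.76 did not pass (exact permutation test, adjusted p = 0.0505) and ranged from -2.13 to -1.13 when 1 library was left out.

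Rpl7l1, a relative of Rpl7, rose from 35.0 CPM (29.5 to 41.8) to 47.6 CPM (42.2 to 51.9) with mtDNA-B6 and from 33.6 CPM (30.5 to 46.3) to 47.9 CPM (44.9 to 59.0) with mtDNA-NZB. The log2 fold changes were 0.43 ± 0.12 and 0.49 ± 0.13 (adjusted p = 0.00394 and 0.00179). Rpl7 itself had -0.24 ± 0.16 and -0.25 ± 0.16 and was not called. The log2 ratio of Rpl7l1 to Rpl7 rose by 0.68 with mtDNA-B6 and its change of 0.62 with mtDNA-NZB did not pass (exact permutation tests, adjusted p = 0.00722 and 0.0742).

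**Figure D3:**
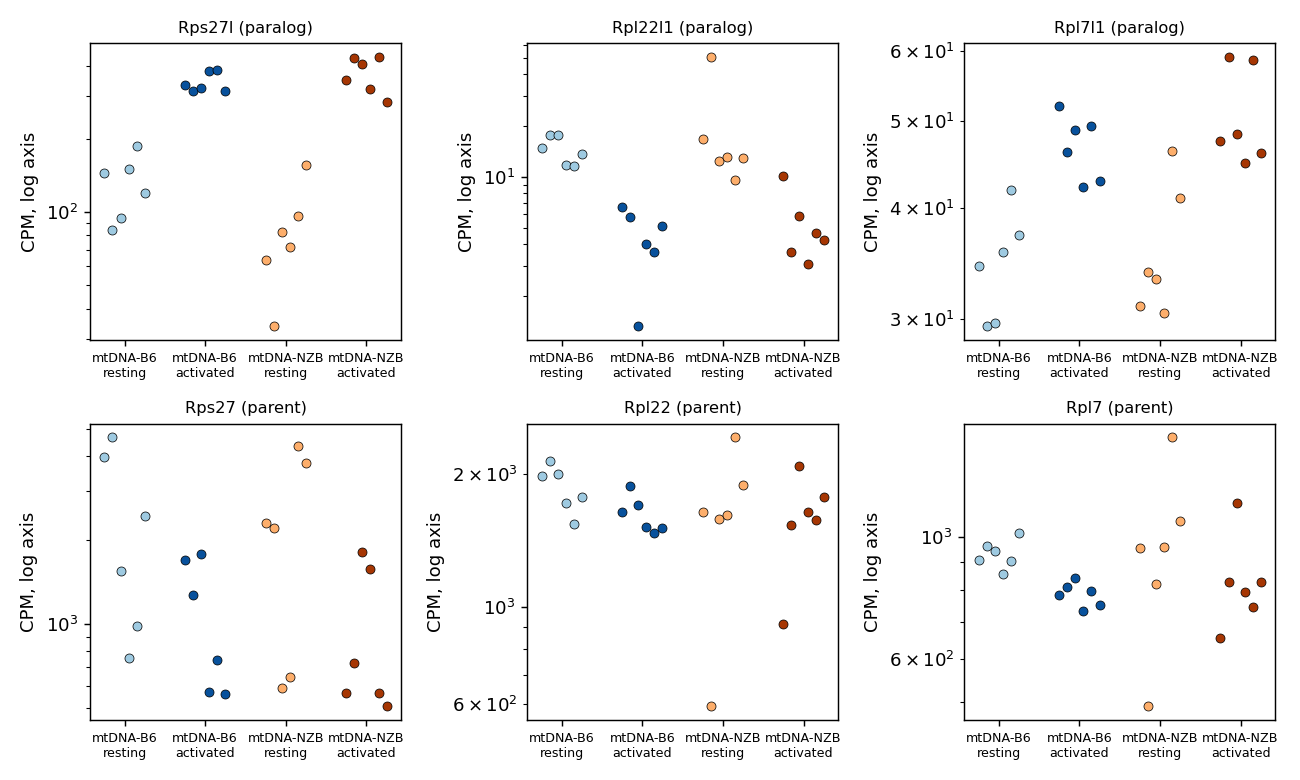
Level (CPM, log axes) of 3 paralogs in the upper row and of their parent genes in the lower row, each point being 1 of the 24 libraries. Rps27l lies above 282 CPM in every activated and at most at 187 CPM in every resting library, Rpl22l1 is lower and Rpl7l1 higher after activation, and Rps27 spreads from 507 to 4688 CPM.

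In the other tested pairs the paralog was not called. Rpl36al had log2 fold changes of -0.18 ± 0.14 and -0.19 ± 0.15, while its near-identical relative Rpl36a fell by 0.53 ± 0.18 and 0.48 ± 0.18 (adjusted p = 0.0173 and 0.0276). The Rpl36a calls were lost in 2 and 3 of 15 alternatives (adjusted p up to 0.065 and 0.114), and with mtDNA-NZB also in 2 of the 24 fits without 1 library. Their log2 ratio rose by 0.35 with mtDNA-B6, and its change of 0.28 with mtDNA-NZB did not pass (exact permutation tests, adjusted p = 0.0162 and 0.138). Rps4l and Rps4x, both with few counts, were not called, and neither was their ratio (exact permutation tests, adjusted p = 0.353 in both haplotypes). Counts of Rps4x hardly followed the size of the library (below), so this ratio cannot decide whether the pair changed. Reads of such near-identical copies can be divided between genes by the mapping. Annotated Rpl and Rps pseudogenes held 0.125 to 0.5% of all counts.

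Some members varied widely between libraries of the same group. Rps24, of the small subunit, ranged from 247 to 3437 CPM, and with mtDNA-B6 from 323 to 2832 CPM at rest and from 378 to 1943 CPM after activation. Its within-group SD of log2 CPM was 1.28, the largest of the 84 members, and that of Rps27 was 0.99. Of the 12 libraries with the most Rps24, 11 were also among the 12 with the most Rps27. Rps24 was not called in either haplotype, with log2 fold changes of -0.67 ± 0.63 and -1.08 ± 0.64.

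Another 8 tested members had a median under 100 CPM: Rpl22l1, Rpl24, Rpl39, Rpl7l1, Rps15a, Rps25, Rps4l and Rps4x. In 4 of them the counts hardly followed the size of the library. Rps15a had 35 counts in the library of the lowest total and 18 to 104 counts in the 22 larger libraries, that is 593 CPM in the former and 5.3 to 33.5 CPM in the latter. Rps25 had 15 counts there and 6 to 56 elsewhere, Rpl39 had 13 and 8 to 36, and Rps4x had 13 and 9 to 66. Their within-group SD of log2 CPM was above 1, and none of the 4 was called on activation. Rpl27 showed the opposite, with 1 count in that library and at least 2186 in the 22 larger ones.

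**Figure D4:**
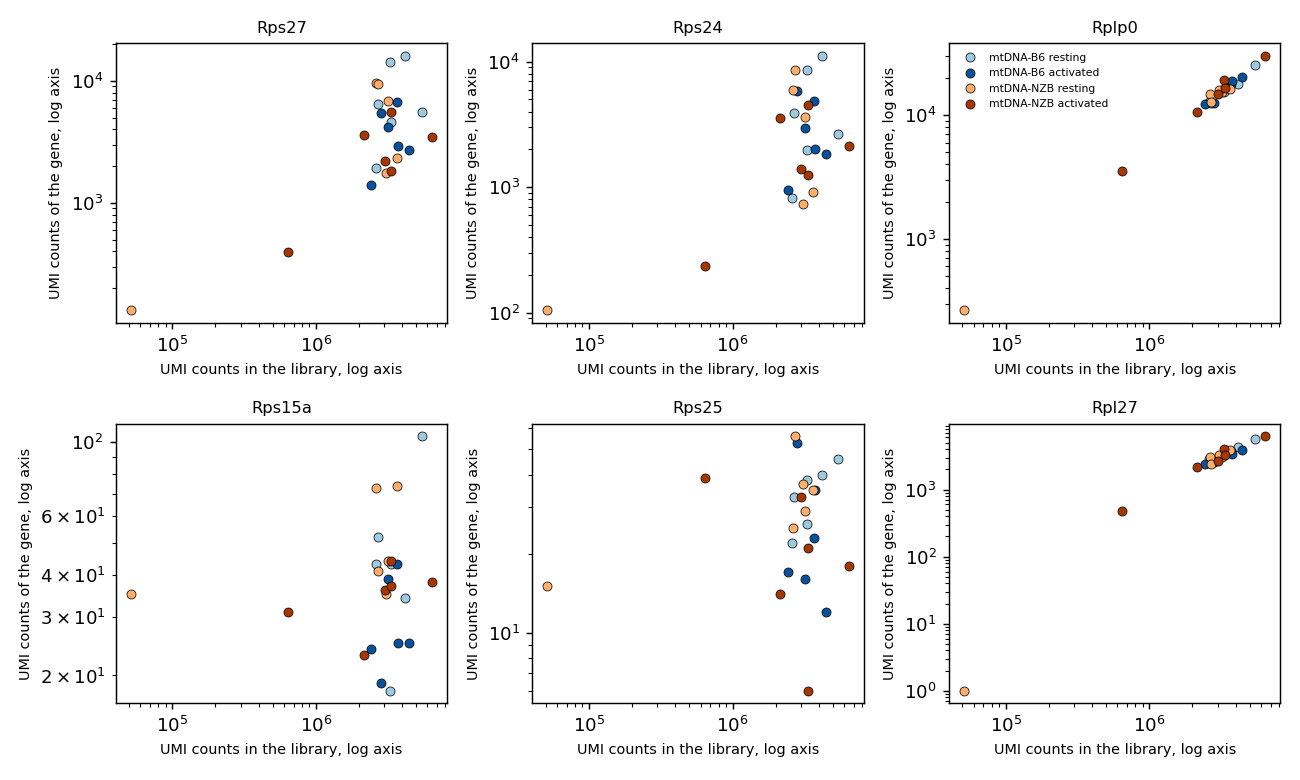
UMI counts of 6 members against the total UMI counts of each library, both on log axes, coloured by group. Rplp0 rises with the total, Rps27 and Rps24 scatter widely at like totals, Rps15a and Rps25 hardly change with the total, and Rpl27 has 1 count in the library of 51409.

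The second question was whether the mtDNA haplotype changed these genes. RNA of other cells stands beside this comparison too. The granulocyte sum had resting medians of 3165 CPM with mtDNA-B6 and 830 CPM with mtDNA-NZB, and the erythroid sum 1452 and 242 CPM. The ranges overlapped, and 1 of 8 erythroid genes was called lower with mtDNA-NZB. The part of these cells was not tested. At rest none of the 81 members was called between mtDNA-NZB and mtDNA-B6 by edgeR's quasi-likelihood test, where 2.76% of all genes were, and 1 had an unadjusted p under 0.05, as did 20.8% of all genes. That member was Rps27l, with a log2 difference of -0.51 ± 0.20 and an adjusted p of 0.151. Over the 21 libraries named above its log2 difference was -0.74 ± 0.18 (adjusted p = 0.0198), and it was also called without resting mtDNA-NZB replicate 6 alone. That library, left out in both fits, had the most Rps27l of its group, 157 CPM against 33.9 to 95.8 CPM. The 21 libraries also leave out replicate 2, the lowest of that group at 33.9 CPM. DESeq2 called 1 other member, Rps15a, higher with mtDNA-NZB (log2 difference 2.85 ± 0.76, adjusted p = 0.0356), which in the fit without the 2 libraries of the lowest total was 0.47 ± 0.31 (adjusted p = 0.396). The median log2 difference over the members was 0.06, against -0.01 over all genes.

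After activation none of the 81 members and none of the 10566 genes differed between haplotypes by edgeR, no member had an unadjusted p under 0.05 (3.09% of all genes had), and DESeq2 called none of the members, with 1 at an unadjusted p under 0.05. The median difference over the members was 0.08, against 0.01 over all genes. The response to activation differed between the haplotypes for none of the members and none of all genes by edgeR, and for none of the members by DESeq2, where 1 had an unadjusted p under 0.05. Rps27l was the 1 member with an unadjusted p under 0.05 in this comparison, where 14.3% of all genes had one, with a difference of 0.63 ± 0.28 on the log2 scale (adjusted p = 0.315), and of 0.92 ± 0.24 over the 21 libraries (adjusted p = 0.0537). Those 21 leave out the activated mtDNA-NZB library with the least Rps27l, at 282 CPM, and the resting ones with the most and the least.

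Around the ribosomal proteins, related gene lists did not share one direction on activation. Among ribosomal protein genes that the symbol rule leaves out, Rps3a1 fell by 0.48 ± 0.13 and 0.55 ± 0.13 and Fau by 0.42 ± 0.14 and 0.48 ± 0.14, while Rack1 had log2 fold changes of -0.25 ± 0.11 and -0.20 ± 0.11 and was not called (adjusted p = 0.0648 and 0.132). Of 16 other mRNAs known to begin with a TOP tract, 2 rose and 3 fell in each haplotype, where 46.9% and 53.5% of all genes were called. Hnrnpa1 fell by 1.16 ± 0.14 and 1.28 ± 0.14, Tpt1 by 0.96 ± 0.14 and 0.93 ± 0.14, and Eif3e had log2 fold changes of -1.15 ± 0.32 and -1.83 ± 0.35, while Nap1l1 rose by 0.77 ± 0.09 and 0.78 ± 0.09 and Btf3 by 0.28 ± 0.11 and 0.28 ± 0.12. The elongation factor genes Eef1a1 and Eef2 were not called.

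Of 19 tested initiation factors, 8 rose and 1 fell with mtDNA-B6, and 7 rose and 2 fell with mtDNA-NZB. Eif3c rose by 0.66 ± 0.09 and 0.64 ± 0.10 and Eif5a by 0.42 ± 0.15 and 0.85 ± 0.15, while Eif1 fell by 1.24 ± 0.15 and 1.26 ± 0.15. Of 24 genes of RNA polymerase I and ribosome biogenesis, 4 rose and 2 fell with mtDNA-B6 and 9 rose and 1 fell with mtDNA-NZB, against 22.4% and 25.2% of all genes called higher and 24.5% and 28.4% lower. Among them Ncl rose by 0.63 ± 0.16 and 0.53 ± 0.16 and Dkc1 by 0.40 ± 0.11 and 0.83 ± 0.12. Of 9 regulators, 1 rose, 3 fell and 5 were not called with mtDNA-B6. With mtDNA-NZB 1 of them rose, 2 fell and 6 were not called. Larp1, which binds TOP mRNAs, rose by 0.42 ± 0.16 and 0.75 ± 0.17, and the S6 kinase gene Rps6kb1 fell by 0.43 ± 0.12 and 0.73 ± 0.13. Myc fell by 0.79 ± 0.23 with mtDNA-B6 and had -0.25 ± 0.24 with mtDNA-NZB (adjusted p = 0.385).

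The proteins of the mitochondrial ribosome, which translates the mtDNA-encoded mRNAs, went in the other direction from those of the cytosolic one. Of 74 tested, 49 rose and 3 fell with mtDNA-B6, with a median log2 fold change of 0.40, and 64 rose and none fell with mtDNA-NZB, with a median of 0.76. Over all tested genes 22.4% and 25.2% were called higher.

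**Figure D5:**
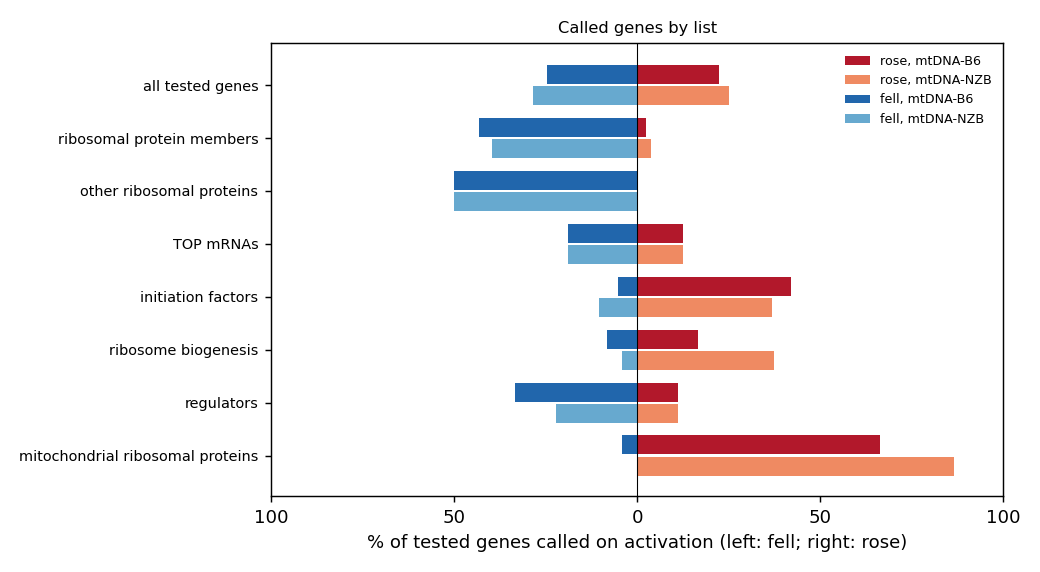
Share of the tested genes of each list called lower (left of 0) or higher (right of 0) on activation with mtDNA-B6 and mtDNA-NZB, with all 10566 tested genes in the top row. Ribosomal protein members are mostly to the left (43.2% and 39.5% fell), initiation factors and mitochondrial ribosomal proteins mostly to the right.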

How the data were processed

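Poly(A) RNA of 24 Tconv libraries, 6 per mtDNA haplotype and state, was analysed; groups and replicate numbers were taken from the sample labels, and 1 column that matched no sample was not used. The authors trimmed reads with cutadapt, mapped them with STAR to the last 1000 bases of GRCm39 transcripts, counted them per gene with HTSeq, and removed repeated UMIs. The deposited values used are these UMI counts, corrected for saturation by the authors and not scaled. A second deposited count table, larger throughout, was read as counts before UMI removal and used as an alternative. Tool versions and strandedness are not given in the sources used here. Of the 84 members, 21 overlap another protein-coding gene within their last 1000 bases, where reads can be shared.

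Symbols came from GENCODE vM39; 665 of 55414 identifiers, with 0.0272% of counts, had none. Counts were analysed with edgeR 4.0.16 in R 4.3.3 (filterByExpr with a minimum count of 10, TMM, quasi-likelihood test of 4 groups in 1 fit of 24 libraries, Benjamini-Hochberg over all tested genes, calls at an adjusted p of at most 0.05), with DESeq2 1.42.0 as an alternative. The SE is the log2 fold change divided by the root of F. Shares, the subunit ratio and the paralog ratio (pseudocount 0.5) were compared by two-sided exact permutation tests over libraries in Python 3.11.15, adjusted over 5 comparisons or, for paralogs, 10 tests. The scripts were tested on simulated data. Libraries of a group differed by more than counting noise (chi-square per degree of freedom at least 2.77), so none was treated as a duplicate deposit of another; this does not show that they came from separate mice. Intervals cover counting error only. Sequences are from RefSeq. Alternatives were other scalings, filters, the second table, fewer libraries, each library left out, the library set or a replicate block as a term; those over 22 libraries, over 21 with the set term, over the paired libraries without a block, and without Rps24 and Rps27 were added after the data were seen.

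Members named are, for each comparison, the 5 largest rises and the 5 largest falls among those called, the paralog pairs, the untested members and 12 members with a known role; Rps24, Rps25, Rps15a, Rpl39, Rpl24 and Rpl27 were named after their values were seen. The members and lists were chosen with earlier results of these data known. One gene of the list of other ribosomal proteins is not reported here.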

Additional observations from a re-analysis of the deposited data

Results flagged for a closer look

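Values that stood apart from the other 5 libraries of their group (Dixon's test at its 95% critical value) were sought in 76 groups of 6, of which chance flags about 1 in 20; 7 were found. Activated mtDNA-NZB replicate 3 was the highest of its group for Rps14, at 6122 CPM against 2577 to 3380 CPM, for Rps10, at 568 CPM against 226 to 307 CPM, and for Rpl12, at 4509 CPM against 3343 to 3747 CPM. It was also the library with the highest member share of its group, 24.6%. Activated mtDNA-B6 replicate 2 was the highest of its group for Rpl12, at 4051 CPM against 3292 to 3520 CPM, and for Rps10, at 306 CPM against 232 to 255 CPM. Resting mtDNA-NZB replicate 5 had 4724 CPM of Rpl11 against 3354 to 3841 CPM, and the highest member share of all, 28.6%. Resting mtDNA-NZB replicate 2 had 50.8 CPM of Rpl22l1 against 9.62 to 16.7 CPM, from 3 counts. Without activated mtDNA-NZB replicate 3, 44 members in place of 35 were called on activation with mtDNA-NZB, a count that has no background of all genes beside it here.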

How the results depend on the processing

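For members called on activation, 37 with mtDNA-B6 and 35 with mtDNA-NZB, the counts moved by over 1.5 times with only the 12 libraries compared (59 and 19), with the library set as a term (21 with mtDNA-B6, and 23 over 21 libraries, an alternative added after the data were seen) and with a log2 fold change of at least 1 (2 and 3). The share of all genes called moved too. It was 56.9% and 43.7% with the 12 libraries, and with the set term 33.4% with mtDNA-B6, and 33.2% over 21 libraries. Leaving out 1 library gave 24 to 43 and 25 to 46. With mtDNA-B6 42.4 to 49.3% of all genes were called in these fits, and the counts with mtDNA-NZB have no background beside them here. At rest, 0 members were called between haplotypes, 1 with DESeq2, 1 over 21 libraries, 1 over 21 libraries with the set as a term, and 0 to 1 without 1 library. After activation and for the difference of responses every alternative run called 0.

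The share changed by -5.33 percentage points with mtDNA-NZB over 21 libraries and by -4.19 without the 2 libraries of the lowest total (added later), both at an adjusted p of 0.0595, and by -5.76 with mtDNA-B6 within library sets. Without 1 library each, the change on activation was -4.57 to -3.63 and -5.02 to -3.52, the haplotype difference -0.314 to 0.900 at rest and -0.596 to 0.722 after activation, and the difference of responses -1.01 to 0.485 points. The subunit ratio's haplotype difference at rest turned from -0.0228 to 0.0184 over 21 libraries and to 0.00629 without the 2 smallest; without 1 library it was -0.0344 to 0.00629 at rest and -0.0442 to -0.0191 after activation, and the difference of responses -0.0359 to 0.00478. On activation the ratio kept its direction and its call in every fit without 1 library (0.12 to 0.14 and 0.09 to 0.13) and without Rps24 and Rps27. Of 26 calls of named genes, 17 held under all alternatives and omissions; the exceptions were Rpl11, Rpl30, Rpl36a, Rpl5, Rplp1 and Rps27. The causes were not tested.

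The labels' numbers could pair 9 resting and activated libraries. The deviations of same-numbered libraries correlated by -0.16 to 0.25, 3 of 9 above 0.1, and 2 of 9 resting libraries correlated best with their own number, so the data do not show that the numbers pair the libraries. The sources do not say whether a number marks a mouse, and the study divided isolated cells into a resting and an activated part, so a shared mouse is possible and was not settled by this check. With the replicate block by label number 32 and 33 members were called (35 and 33 for the same libraries without the block), and with the block by title number 33 and 33. With mtDNA-B6 41.2%, 44% and 45.2% of all genes were called in these fits, in that order. The counts with mtDNA-NZB have no background beside them here. In sign-flip tests of the paired differences the share changed by -3.32 and -3.68 points with the block by label number and by -4.01 and -4.25 by title number, and the ratio by 0.118 and 0.0798, and by 0.13 and 0.12; the smallest p these tests allow is 0.0625 with 5 pairs, 0.125 with 4 and 0.03125 with 6, and no adjusted p was under 0.0625. The depth of the 2 smallest libraries limits the members of few counts.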
